A study of Mus musculus with 246 samples.

Results

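The 9 genes described here encode 7 Toll-like receptors (Tlr1, Tlr2, Tlr3, Tlr4, Tlr6, Tlr7 and Tlr9), the signaling adaptor Myd88 and the receptor-like protein Cd180. They were taken by gene name from the 56691 genes of the count table, of which 21915 were protein-coding. They were chosen with the pattern of Tlr1 known, which the study had singled out on its levels in the 3 conditions of the NoInteraction mice, and all 9 passed the filter on low counts in every fit.

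Brain tissue came from 41 adult male offspring of CD1 mice, an outbred stock. Punches were taken from 6 regions of each mouse. These were the medial prefrontal (PFC) and the anterior cingulate (ACC) cortex and the shell of the nucleus accumbens (Nacc). The others were the amygdala at its basolateral nucleus (BLA), the ventral part of the hippocampus (HC) and the dorsomedial part of the thalamus (DMT). Ctrl_Vehicle mice were raised under standard conditions by dams that had been injected once with an empty slow-release gel. ELA_Vehicle mice had the same gel and early life adversity, in which dam and litter were kept with little bedding and nesting material from the second to the ninth postnatal day. ELA_SAFit2 mice had the same adversity, and the gel given to their dam carried SAFit2, an inhibitor of the glucocorticoid receptor co-chaperone FKBP51. The gel was injected into the dam and the pups were exposed through her milk, so a litter shared its treatment, and the labels do not say which mice shared a litter. In the NoInteraction set (7 mice per condition) the brain was collected without a social encounter. In the SocialInteraction set (6 Ctrl_Vehicle, 7 ELA_Vehicle and 7 ELA_SAFit2 mice) it was collected after 10 min with an unfamiliar mouse. The p-values below measure the spread between these mice, and they are too small if litter mates are alike.

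Poly-A RNA of each punch was sequenced, 1 library per region and mouse, with 20804247 to 43351424 counts (median 28844788). Levels are given as CPM, counts divided by the scaled library size. The members were low in this tissue: the median count per library ran from 16.5 for Tlr1 to 104 for Myd88 and 251 for Tlr3. Of the region markers checked, those of cortex were highest in the ACC, those of accumbens in the Nacc, those of thalamus in the DMT and those of hippocampus in the HC. The amygdala marker Rspo2 was higher in the ACC (mean 41.2 CPM) and PFC (28.6) than in the BLA (18.5). The summed cortex markers ran from 26.4 to 1233 CPM among Nacc libraries, and the summed accumbens markers from 109 to 807 among BLA libraries. Over 60 genes that differ between mice, none of them a member, 12 of the 41 Nacc libraries matched a mouse other than the mouse on the label, and 0 libraries of the other 5 regions did. All 12 matched a mouse of another group, 8 of them of the other set. Statements about the same mouse therefore leave out the Nacc, and the counts of members called with the Nacc are also given without those libraries. Other Nacc values hold them unless stated. The BLA libraries differed in how much choroid plexus they held: the summed level of 9 choroid plexus markers ran from 26.6 to 5934 CPM in the BLA, and did not exceed 15.6 (PFC), 13.8 (ACC), 54.9 (Nacc), 301 (HC) or 1454 (DMT) elsewhere.

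Toll-like receptors are pattern-recognition receptors of the innate immune system. TLR1 and TLR6 each pair with TLR2 at the cell surface and bind microbial lipopeptides, TLR4 binds bacterial lipopolysaccharide, and CD180, which lacks a signaling domain of its own, modulates TLR4 signaling. TLR3, TLR7 and TLR9 lie in endosomes and sense double-stranded RNA, single-stranded RNA and unmethylated CpG DNA. All of the receptors here except TLR3 and CD180 signal through MYD88, and TLR3 signals through TICAM1. In the brain microglia carry most of these receptors, and astrocytes also carry TLR3.

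Tlr1 and Tlr6 are near-identical over part of their length, which bears on how their reads are counted. In the GENCODE M21 annotation of GRCm38 both lie on the minus strand of chromosome 5, Tlr1 at chr5:64924679-64933563 and Tlr6 at chr5:64952031-64960097. The stretches below, from the transcripts Tlr1-202 (chr5:64925507-64925795) and Tlr6-201 (chr5:64953798-64954086), show their longest identical run, 229 bases inside both coding sequences. The run is in capitals, and the flanking bases are in lower case.
Tlr1: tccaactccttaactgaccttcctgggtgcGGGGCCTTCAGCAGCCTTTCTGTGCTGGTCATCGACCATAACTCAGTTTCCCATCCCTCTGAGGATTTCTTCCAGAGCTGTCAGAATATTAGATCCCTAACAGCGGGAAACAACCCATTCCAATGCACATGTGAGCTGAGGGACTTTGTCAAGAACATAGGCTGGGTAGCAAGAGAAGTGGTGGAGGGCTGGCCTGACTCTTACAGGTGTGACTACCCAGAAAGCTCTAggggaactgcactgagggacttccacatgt
Tlr6: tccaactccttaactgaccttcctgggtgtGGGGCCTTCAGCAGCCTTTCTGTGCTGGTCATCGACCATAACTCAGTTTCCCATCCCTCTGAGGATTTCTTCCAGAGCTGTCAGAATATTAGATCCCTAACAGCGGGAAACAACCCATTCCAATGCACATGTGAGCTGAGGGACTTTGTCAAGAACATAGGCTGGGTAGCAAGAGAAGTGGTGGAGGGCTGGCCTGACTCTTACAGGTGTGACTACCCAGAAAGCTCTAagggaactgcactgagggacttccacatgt
The 2 transcripts shared 603 words of 31 bases, which was 20.1% of the words of Tlr1 and 16.6% of those of Tlr6, and no other pair of members shared any. A read inside such a run cannot be assigned to either gene by its sequence. The estimated counts of both genes were not whole numbers in 93.1% of the libraries, against 37.8% for Tlr3 and under 3% for the remaining 6 members. The other members lie apart from each other in the genome. On the same build Tlr2 is at chr3:83836272-83841767, Tlr4 at chr4:66827584-66930284, Cd180 at chr13:102693558-102739629, Tlr3 at chr8:45395665-45411080, Tlr7 at chrX:167304929-167330558, Tlr9 at chr9:106222598-106226883 and Myd88 at chr9:119335934-119341411.

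Tlr3 and Myd88 were the most abundant members. Per kb of exon, to compare genes, Tlr3 had 1.78 CPM and Myd88 1.46 over all libraries. Tlr7 followed at 0.480 CPM per kb, then Tlr1 at 0.347, Tlr2 at 0.321, Cd180 at 0.298, Tlr6 at 0.270, Tlr9 at 0.229 and Tlr4 at 0.152. The spread of Tlr1 over all libraries (SD 0.318 CPM per kb) was close to its mean, whereas that of Tlr7 was 0.145 and that of Cd180 0.0798.

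Between regions, 8 of the 9 members passed the test in an edgeR quasi-likelihood fit with the group as a covariate, where 97% of the 17381 genes tested did. The exception was Tlr1 (adjusted p = 0.101). With the mouse as a block all 9 passed, and Tlr1 then had an adjusted p of 8.47e-09 without the mismatched Nacc libraries and 2.80e-09 without the Nacc. Without the BLA Tlr1 was again not called in the fit without the block (adjusted p = 0.772).

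**Figure D1:**
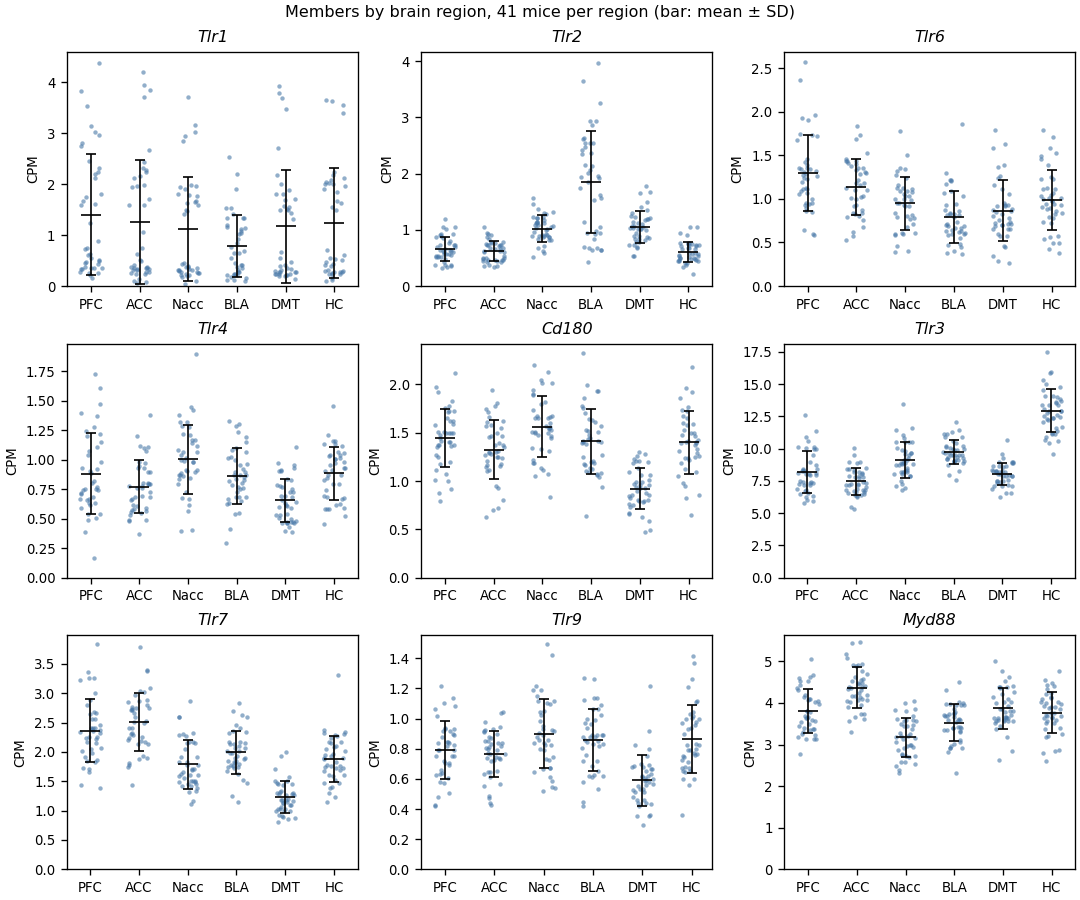
CPM (linear axes starting at 0) of each member in each region, 1 point per mouse, 41 per region, with the mean and SD as bars. Tlr3 was highest in the HC, at 9.55 to 17.5 CPM, Tlr2 ranged from 0.432 to 3.97 in the BLA, and Tlr7, Cd180, Tlr4 and Tlr9 were lowest in the DMT.

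Among the endosomal receptors, Tlr3 had its highest level in the HC, 12.9 CPM ± 1.67 (SD, n = 41). The lowest HC library (9.55) lay below the highest library of each other region (10.0 to 13.4), so the libraries of the regions overlapped. The order of Tlr3 went on with the BLA (9.73 ± 0.943), Nacc (9.15 ± 1.39), PFC (8.18 ± 1.61), DMT (8.04 ± 0.876) and ACC (7.46 ± 1.03), and of the neighbours in it the PFC and DMT did not differ beyond their spread (adjusted p = 0.605). Tlr7 was highest in the ACC (2.51 ± 0.496) and PFC (2.36 ± 0.536), which did not differ (adjusted p = 0.313), and lowest in the DMT (1.23 ± 0.272, adjusted p = 6.03e-14 against the Nacc, the next lowest). Tlr9 ran from 0.901 ± 0.231 in the Nacc to 0.590 ± 0.167 in the DMT, and only the step from the ACC to the DMT separated neighbours (adjusted p = 7.02e-06).

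Of the surface receptors, Tlr4 was also lowest in the DMT (0.655 ± 0.185 CPM, adjusted p = 0.0246 against the ACC), and its other neighbours, from 1.005 ± 0.292 in the Nacc to 0.772 ± 0.222 in the ACC, did not differ, except that the Nacc and HC did without the mismatched libraries (adjusted p = 0.0432). Cd180 showed the same shape, at 1.32 to 1.56 CPM in 5 regions, no neighbours of which differed, and 0.921 ± 0.215 in the DMT (adjusted p = 7.72e-12 against the ACC). The summed level of 12 microglia markers was likewise lowest in the DMT, with a mean of 264 CPM against 334 to 382 in the other regions, and its part in the low DMT levels was not tested. In punches of tissue, fewer cells of a type and less RNA per cell cannot be told apart. Tlr6 fell from 1.299 ± 0.436 in the PFC through 1.14 in the ACC, 0.992 in the HC, 0.948 in the Nacc and 0.863 in the DMT to 0.795 ± 0.298 in the BLA, with no step between neighbours past the threshold. With the mouse as a block its steps from the ACC to the HC (adjusted p = 0.0117) and from the Nacc to the DMT (adjusted p = 0.0416) passed. Tlr1 had its highest mean in the PFC (1.397 ± 1.19) and its lowest in the BLA (0.795 ± 0.609), and no neighbours differed without the block, with which the Nacc and BLA did (adjusted p = 0.00292). Myd88, the adaptor, was highest in the ACC (4.36 ± 0.496) and lowest in the Nacc (3.17 ± 0.461). Between them the DMT (3.87), PFC (3.81) and HC (3.77) did not differ from each other as neighbours, and the other steps passed the threshold.

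Pair by pair, the closest regions for the members were the PFC and ACC, where 2 of 9 differed against 39.1% of all genes. The members called were 6 for PFC and Nacc (75.6% of all genes), 6 for PFC and BLA (74.7%), 6 for PFC and DMT (83.2%) and 3 for PFC and HC (75.4%). For the ACC they were 8 with the Nacc (76.3%), 6 with the BLA (75.3%), 8 with the DMT (82.7%) and 4 with the HC (76.5%). For the remaining pairs they were 6 for Nacc and BLA (69%), 6 for Nacc and DMT (83.3%), 4 for Nacc and HC (75.9%), 7 for BLA and DMT (83.1%), 5 for BLA and HC (75%) and 6 for DMT and HC (83.9%). Without the 12 mismatched libraries the counts with the Nacc were 6 (PFC), 8 (ACC), 5 (BLA), 6 (DMT) and 4 (HC). Tlr4 then passed and Tlr9 did not between the PFC and Nacc, Tlr6 did not between the Nacc and BLA, and Tlr4 passed and Cd180 did not between the Nacc and HC.

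Tlr2, the partner of TLR1 and TLR6, was higher in the BLA than anywhere else, at 1.85 CPM ± 0.911 (SD, n = 41) against 1.05 ± 0.290 in the DMT (log2 difference 0.81, SE 0.105, adjusted p = 6.51e-13). The Nacc stood at 1.02 ± 0.233, which did not differ from the DMT, and the PFC (0.661 ± 0.217), ACC (0.6254 ± 0.183) and HC (0.608 ± 0.184) were lower, with a step from the Nacc to the PFC (log2 difference 0.62, SE 0.111, adjusted p = 9.29e-08) and no difference between neighbours among these 3. The BLA libraries were far apart, from 0.432 to 3.97 CPM, and moved with the choroid plexus markers. The library with the least of these markers (26.6 CPM) had 0.648 CPM of Tlr2, and the library with the most (5934) had 2.86. Over the 41 BLA libraries, on the log2 scale, Pearson's r was 0.918 and Spearman's rho 0.930, both with a permutation p of 1e-05, the smallest that 100000 resamples can give, and an adjusted p of 0.000221 over 144 relations of members with marker sums. Without the 2 libraries farthest from the median r was 0.912, and it was 0.920 in the NoInteraction and 0.925 in the SocialInteraction set. All 6 groups held libraries at both ends, with lowest sums of 26.6 to 117 CPM and highest of 4453 to 5934. The median sum differed between groups, from 521 CPM in SocialInteraction ELA_SAFit2 to 3791 in SocialInteraction ELA_Vehicle. In the NoInteraction set it was 2942 in Ctrl_Vehicle and 1030 in ELA_Vehicle, where the median of Tlr2 was 2.35 and 1.06 (log2 difference -0.73, SE 0.365, adjusted p = 0.9753). Ttr, the transthyretin gene by which choroid plexus is known, had a mean of 2114 CPM in the BLA. Tlr2 in the BLA also rose with a meninges marker sum (r = 0.811, rho = 0.811) and fell with the microglia marker sum (r = -0.536, rho = -0.485). In the DMT, where some libraries also held choroid plexus markers, the relation of Tlr2 with them was weaker (r = 0.452, rho = 0.422, 0.321 without the 2 farthest).

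**Figure D2:**
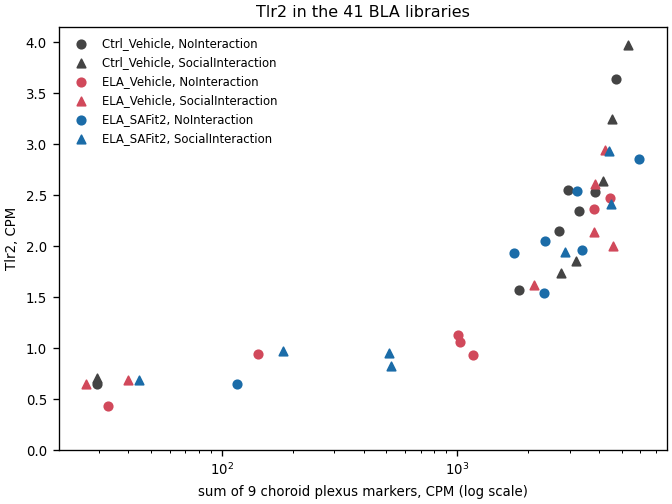
Tlr2 (CPM, linear axis from 0) against the sum of 9 choroid plexus markers (CPM, log axis) in the 41 BLA libraries, with colour for condition and shape for set. Tlr2 rises from 0.432 CPM in a library with a marker sum of 32.8 to 3.97 in a library with a sum of 5326, and all 6 groups have points at both ends.

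In the PFC the marker sums moved with other members. Tlr4 correlated with the meninges sum (r = 0.748, rho = 0.704, adjusted p = 0.000221 for both) and with the microglia sum (r = 0.690, rho = 0.656). Tlr3 did so as well (r = 0.682, rho = 0.586 with the meninges sum, and r = 0.671, rho = 0.646 with the microglia sum), and Tlr9 had an r of 0.562 and a rho of 0.556 with the meninges sum. All of these were over 41 libraries and remained at r = 0.515 to 0.689 without the 2 farthest libraries. Over the same libraries Tlr3 (r = 0.660), Tlr4 (0.607) and Tlr9 (0.476) also rose with the choroid plexus sum, which did not exceed 15.6 CPM in the PFC. Tlr9 rose with the microglia sum as well (r = 0.614), and Tlr2 with the meninges (0.535) and microglia (0.531) sums. The part of the makeup of the punch in the spread of these members among PFC libraries was not tested.

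Tlr1 differed between mice far more than between regions. Its mean over the 5 regions without the Nacc was 0.168 to 0.484 CPM in 22 mice and 1.34 to 3.45 in the other 19, with no mouse between. The upper 19 fell again into 15 mice at 1.34 to 2.56 and 4 mice at 3.25 to 3.45. The ranges of the 22 and the 19 mice did not overlap in the PFC (up to 0.886 against from 1.23), ACC (0.632 against 0.756), DMT (0.675 against 1.31) or HC (0.700 against 1.496), and overlapped in the BLA (0.766 against 0.695). The 29 Nacc libraries that matched their label did not overlap either (0.458 against 1.42). Of the 12 mismatched Nacc libraries, 8 lay on the same side of the gap as the mouse on the label, and 12 on the same side as the mouse they matched.

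The gap of Tlr1, 1.303 on the log2 scale between neighbouring mice with at least 5 mice on either side, was as large in 29 of 15203 genes (0.191%). The other 8 members had no such gap: their largest was 0.0317 for Tlr3 to 0.104 for Tlr6, sizes that 42.6% and 7.99% of genes reached. The mice on the upper side of the gap came from every group. In the NoInteraction set they were 3 of 7 Ctrl_Vehicle, 4 of 7 ELA_Vehicle and 1 of 7 ELA_SAFit2 mice, and in the SocialInteraction set 3 of 6, 5 of 7 and 3 of 7. All 4 mice above 3.2 CPM were ELA mice, 3 of them ELA_Vehicle and the other ELA_SAFit2, which is a description of mice picked by their level.

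**Figure D3:**
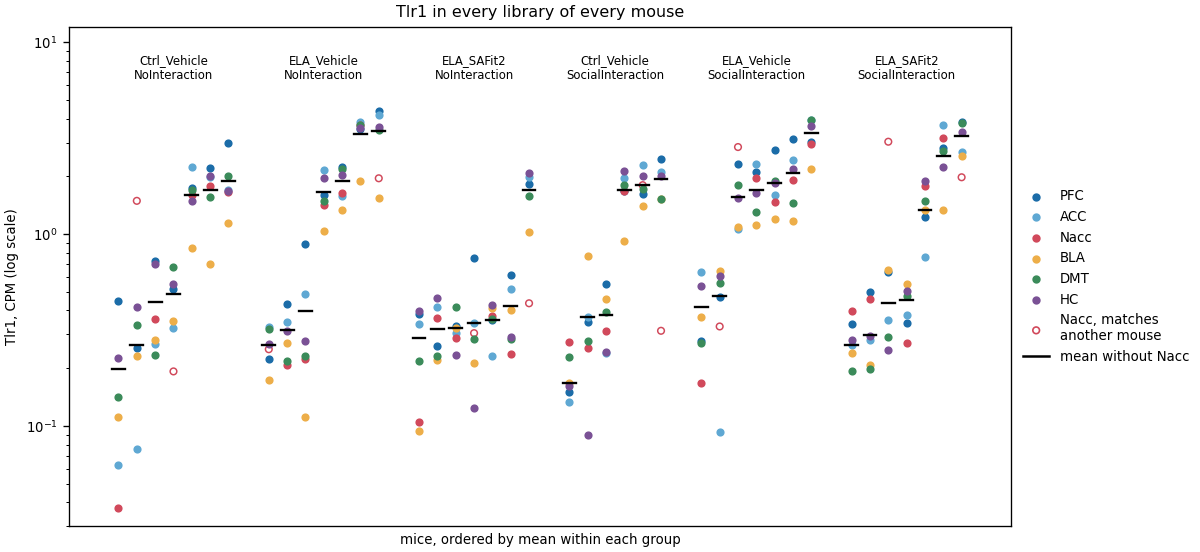
Tlr1 in every library (CPM, log axis), with the 41 mice side by side in their 6 groups, 1 colour per region, and a bar for the mean of 5 regions. The bars lie at 0.168 to 0.484 or at 1.34 to 3.45 CPM in all 6 groups, and open Nacc points, whose library matched another mouse, lie on the other side of the gap from the mouse on the label in 4 of 12 cases.

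As the mean over 6 regions, Tlr1 in NoInteraction Ctrl_Vehicle mice ran from 0.171 to 1.86 CPM (median 0.468), ELA_Vehicle mice from 0.261 to 3.38 (median 1.61) and ELA_SAFit2 mice from 0.256 to 1.49 (median 0.337). The 3 groups overlapped over most of their range. On the log2(CPM + 0.1) scale ELA_Vehicle was higher than Ctrl_Vehicle by 0.54 (SE 0.709) and ELA_SAFit2 differed from ELA_Vehicle by -1.15 (SE 0.611). Tlr1 was singled out by the study on these mice and this pattern, so the values are a description and no test is given. Within single regions the fitted log2 differences ran from 0.38 to 0.97 for the first comparison and from -2.15 to -1.19 for the second, with the same sign in 6 of 6 regions. In the Nacc without the mismatched libraries they were 0.38 and -2.39. Since the regions of a mouse share the level of Tlr1, they are not separate observations. When each mouse was dropped in turn, the first difference ran over 0.262 to 0.807 and the second over -1.43 to -0.884. Over the 5 regions without the Nacc the differences were 0.58 and -1.12. Without NoInteraction Ctrl_Vehicle mouse 33 the first fell to 0.262, and without ELA_Vehicle mouse 37 it reached 0.807.

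The SocialInteraction mice were not used to pick Tlr1. Their Ctrl_Vehicle mice ran from 0.186 to 1.80 CPM (median 1.01), ELA_Vehicle mice from 0.375 to 3.28 (median 1.78) and ELA_SAFit2 mice from 0.286 to 3.04 (median 0.869). The groups overlapped. ELA_Vehicle was higher than Ctrl_Vehicle by 0.77 on the log2 scale (95% interval -0.640 to 2.19, exact permutation test, two-sided, p = 0.233 over 1716 arrangements), and ELA_SAFit2 differed from ELA_Vehicle by -0.54 (-1.92 to 0.835, exact permutation p = 0.422 over 3432 arrangements), with an adjusted p of 0.422 for both. Both differences had the signs of those in the NoInteraction set, the intervals held 0, and each test could have given a p as small as 0.00058. Without the Nacc they were 0.73 and -0.63 (exact permutation p = 0.275 and 0.348). Leaving out 1 mouse at a time gave 0.473 to 1.04 (lowest without Ctrl_Vehicle mouse 57) and -0.825 to -0.324 (nearest to 0 without ELA_SAFit2 mouse 63), with exact p-values of 0.0736 to 0.418 and 0.198 to 0.620. The difference between the sets in either effect did not pass the edgeR test for any member, where 0% and 0.0403% of all genes did, 0 members had an unadjusted p under 0.05 (5.22% and 4.68% of all genes) and DESeq2 called 0 members. For Tlr1, as a description, the second effect differed between the sets by 1.34 (SE 0.905) and the first by -0.02 (SE 0.913), with the regions summed. The remaining comparison, ELA_SAFit2 against Ctrl_Vehicle, had opposite signs in the sets. Its fitted log2 differences for Tlr1 were below 0 in 6 of 6 NoInteraction regions (-1.77 to -0.39) and above 0 in 6 of 6 SocialInteraction regions (0.03 to 1.03, lowest adjusted p = 0.982 in the edgeR fits), and this difference between the sets was not tested.

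For the other members the 3 conditions could not be told apart by the edgeR tests. Within the 6 regions 0 of the members were called in any of the 3 comparisons, in either set, and 0 were called after summing the 6 regions of each mouse. Without the mismatched libraries 0 were called in the Nacc either. Of all genes, 0% were called in each of these comparisons except 0.00649% for ELA_SAFit2 against ELA_Vehicle in the BLA of the SocialInteraction set. DESeq2 also called 0 members, beside 0 to 25 genes of all per comparison. An unadjusted p under 0.05 occurred in 9 of 144 member comparisons within regions in the NoInteraction set, Tlr1 left out, and in 5 of 162 in the SocialInteraction set. Per comparison, 1.38% to 7.78% and 1.998% to 7.515% of all genes had one. After summing it occurred in 2 of 24 and in 1 of 27, against 3.11% to 5.82% and 4.12% to 5.02% of all genes. The lowest adjusted p was 0.586 within regions and 0.775 after summing in the NoInteraction set, and 0.618 and 0.940 in the SocialInteraction set.

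Tlr6, the neighbour of Tlr1 and near-identical to it over part of its length, was the member whose signs ran most like those of Tlr1. In the NoInteraction set its log2 difference of ELA_Vehicle from Ctrl_Vehicle was 0.07 to 0.37, above 0 in 6 of 6 regions, and that of ELA_SAFit2 from ELA_Vehicle -0.61 to -0.18, below 0 in 6 of 6 regions, with a lowest adjusted p of 0.643. In the SocialInteraction set the second difference was again below 0 in 6 of 6 regions (-0.56 to -0.0015), and the first was above 0 in 4 of 6. As the mean over 6 regions the NoInteraction mice ran from 0.537 to 1.54 CPM in Ctrl_Vehicle, 0.875 to 1.48 in ELA_Vehicle and 0.849 to 1.05 in ELA_SAFit2, which overlapped. Myd88 was below 0 in 6 of 6 regions for ELA_SAFit2 against ELA_Vehicle in the NoInteraction set (-0.23 to -0.04) and in 4 of 6 in the SocialInteraction set. Cd180 was lower in ELA_Vehicle than in Ctrl_Vehicle in 5 of 6 NoInteraction regions (-0.48 to 0.08) and in 3 of 6 SocialInteraction regions. Tlr9 was above 0 in 6 of 6 regions for ELA_SAFit2 against ELA_Vehicle in the NoInteraction set (0.05 to 0.25) and in 2 of 6 in the SocialInteraction set. None of these passed the test, the comparisons within a set share the ELA_Vehicle mice, and shared reads of Tlr1 and Tlr6 were not separated here. The regions come from the same mice, so here and below counts of regions with the same sign are not separate observations.

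How far a member kept its level across the regions of a mouse was described by the median correlation between pairs of regions over the 41 mice, after removing the mean of each region and group. Tlr1 had a median r of 0.902 over the 10 pairs of 5 regions (0.850 to 0.942). Tlr6 was next at 0.5997 (0.275 to 0.653). The remaining members stood at 0.266 for Tlr7, 0.264 for Cd180, 0.216 for Tlr3, 0.160 for Myd88, 0.140 for Tlr9, 0.0630 for Tlr4 and -0.106 for Tlr2. Over all 15203 genes the median was 0.118 and 5.68% were over 0.5, as Tlr1 and Tlr6 were. Tlr1 and Tlr6 summed, which removes the split of shared reads, had 0.852.

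**Figure D4:**
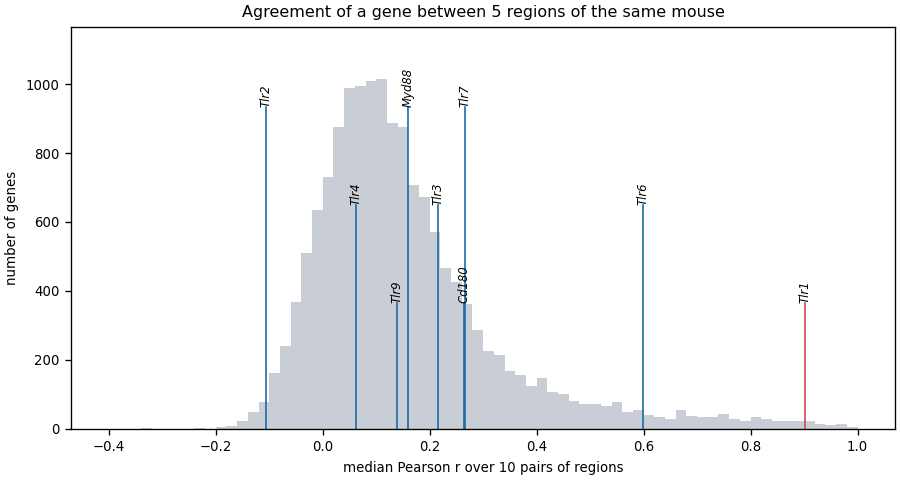
Histogram of the median correlation between 10 pairs of regions for 15203 genes, with a vertical line at each member. Tlr1 (0.902) and Tlr6 (0.5997) lie in the right tail, and the other 7 members lie between -0.106 and 0.266, around the median gene at 0.118.

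Whether the pattern of Tlr1 over mice was shared by the other members was read from the mean of the 5 regions of each mouse, centred on its group. Pearson's r with Tlr1 was 0.356 for Tlr2, 0.350 for Tlr6, 0.296 for Cd180, 0.0821 for Tlr3, -0.0835 for Myd88, -0.106 for Tlr7, -0.173 for Tlr4 and -0.238 for Tlr9. Values as high as those of Tlr2, Tlr6 and Cd180 were reached by 3.05%, 3.28% and 6.13% of the 15203 genes. Since the mice fell into separate sets by Tlr1, these r are measures of likeness only and no p is given for them. Without the BLA, where Tlr2 moved with the choroid plexus markers, r was 0.577 for Tlr2, which 0.0658% of genes reached, and 0.423 for Tlr6 (1.61%). By region the r of Tlr2 with Tlr1 was 0.442 for ACC, 0.392 for DMT, 0.299 for HC and 0.201 for PFC libraries, -0.0881 for those of the Nacc and -0.108 for those of the BLA. That of Tlr6 was 0.528 for HC, 0.481 for DMT, 0.353 for Nacc, 0.247 for PFC and 0.194 for ACC libraries, and -0.0468 for those of the BLA.

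Within the mice on either side of the gap none of the relations passed the correction. The strongest was that of Tlr6 in the 19 mice above the gap, where r was 0.549 (permutation p = 0.0161, adjusted 0.516 over 32 tests) and rho 0.479 (permutation p = 0.0391, adjusted 0.6253), and r was 0.398 without the 2 mice farthest from the median. Without the BLA these were 0.590 and 0.581 (permutation p = 0.00802 and 0.0105, adjusted 0.168 for both). In the 22 mice below the gap r was 0.0862 for Tlr6. For Tlr2 r was 0.212 below and 0.0220 above the gap, and 0.161 and -0.0996 without the BLA, against 0.577 over all mice. Among the members other than Tlr1, the most alike over mice were Cd180 and Tlr3 (r = 0.553). Tlr7 and Tlr9 (0.516) and Tlr4 and Tlr7 (0.487) followed, and the least alike were Cd180 and Tlr7 (-0.443). These r are given as a description over the same 41 mice.

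Among the genes whose pattern over the 41 mice was most like that of Tlr1 were Btbd6 (r = 0.682), Snn (0.614), Vax1 (0.602) and Nat8l (0.590), with 0.654, 0.567, 0.556 and 0.594 without the BLA. Their own agreement between regions was -0.0473 to 0.1004, near that of the median gene (0.118) and far from that of Tlr1. The 19 genes within 1 Mb of Tlr1 on GRCm38 had r of -0.313 to 0.350 with it, the highest being Tlr6, and agreements of -0.0780 to 0.5997 with a median of 0.0708. The 2 genes nearest to each other member were Tmem86a (0.746) and Septin10 (0.742) for Tlr2, Fndc5 (0.5998) and Ccr2 (0.562) for Tlr6, and Nadk2 (0.639) and Mavs (0.619) for Tlr4. For Cd180 they were Gbp4 (0.692) and Stag3 (0.688), for Tlr3 Appl2 (0.717) and Ttpa (0.682), and for Tlr7 Dio2 (0.753) and Mertk (0.707). For Tlr9 they were Oprd1 (0.601) and Timm17a (0.575), and for Myd88 Ap3d1 (0.650) and Tsga10 (0.639).

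The set in which the brain was taken, after a social encounter or without, was the only comparison between groups of mice in which members passed the test. The 2 sets differ in the encounter and in whatever else went with their collection, which cannot be told apart here. With the 6 regions of each mouse summed, 2 of 9 members were called, Tlr3 and Cd180, both lower after the encounter, where 8.56% of all genes were called. Within regions 1 member was called in the ACC (4.15% of all genes), and 0 in the PFC (7.40%), BLA (1.49%), DMT (1.60%), HC (1.21%) and Nacc (0%). DESeq2 called the same numbers of members, and an unadjusted edgeR p under 0.05 occurred for 5 members in the BLA (14.8% of all genes), 2 each in the PFC (19.5%), ACC (16.99%) and HC (12.9%), 1 in the DMT (12.7%) and 0 in the Nacc (2.46%). The Nacc sets hold 8 libraries that matched a mouse of the other set, and without the 12 mismatched libraries 0 members were called there and Tlr3 differed by -0.18 in the Nacc (adjusted p = 0.633), against -0.07 with them.

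Tlr3, the double-stranded RNA receptor, was 8.40 to 10.8 CPM (median 9.68) as the mean of 6 regions in the 21 NoInteraction mice and 7.14 to 10.2 (median 8.69) in the 20 SocialInteraction mice. The sets overlapped, and 19 of 20 SocialInteraction mice lay below the NoInteraction median. The log2 difference was -0.14 (SE 0.0324, edgeR adjusted p = 0.00504), and -0.15 (adjusted p = 0.00286) without the Nacc. In the ACC it was -0.23 (SE 0.0513, adjusted p = 0.00547), from 5.49 to 10.0 CPM (median 8.19) in NoInteraction libraries and from 5.34 to 8.07 (median 6.75) in SocialInteraction libraries. All 20 SocialInteraction libraries of the ACC lay below the NoInteraction median. The difference was below 0 in 6 of 6 regions (-0.23 to -0.07), and its unadjusted p was under 0.05 in 5 of them, the Nacc being the exception.

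Cd180 was 1.195 to 1.73 CPM (median 1.42) in the NoInteraction mice and 0.830 to 1.52 (median 1.25) in the SocialInteraction mice, 16 of 20 of which lay below the NoInteraction median. The log2 difference was -0.20 (SE 0.0528, adjusted p = 0.0128), and -0.23 (adjusted p = 0.00977) without the Nacc. It lay below 0 in 6 of 6 regions (-0.30 to -0.08), none of which passed the test alone (lowest adjusted p = 0.0865, in the ACC). Ly86, the secreted partner with which CD180 forms its complex, had a log2 difference of -0.21 in the PFC (SE 0.0686, adjusted p = 0.0469, and 0.0597 without the filter on low counts) and of -0.11 with the regions summed, which did not pass (adjusted p = 0.180). Leaving out SocialInteraction Ctrl_Vehicle mouse 57, which stood apart from its group for Tlr3, gave adjusted p-values of 0.0108 for Tlr3, 0.0206 for Cd180 and 0.0102 for Tlr3 in the ACC.

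**Figure D5:**
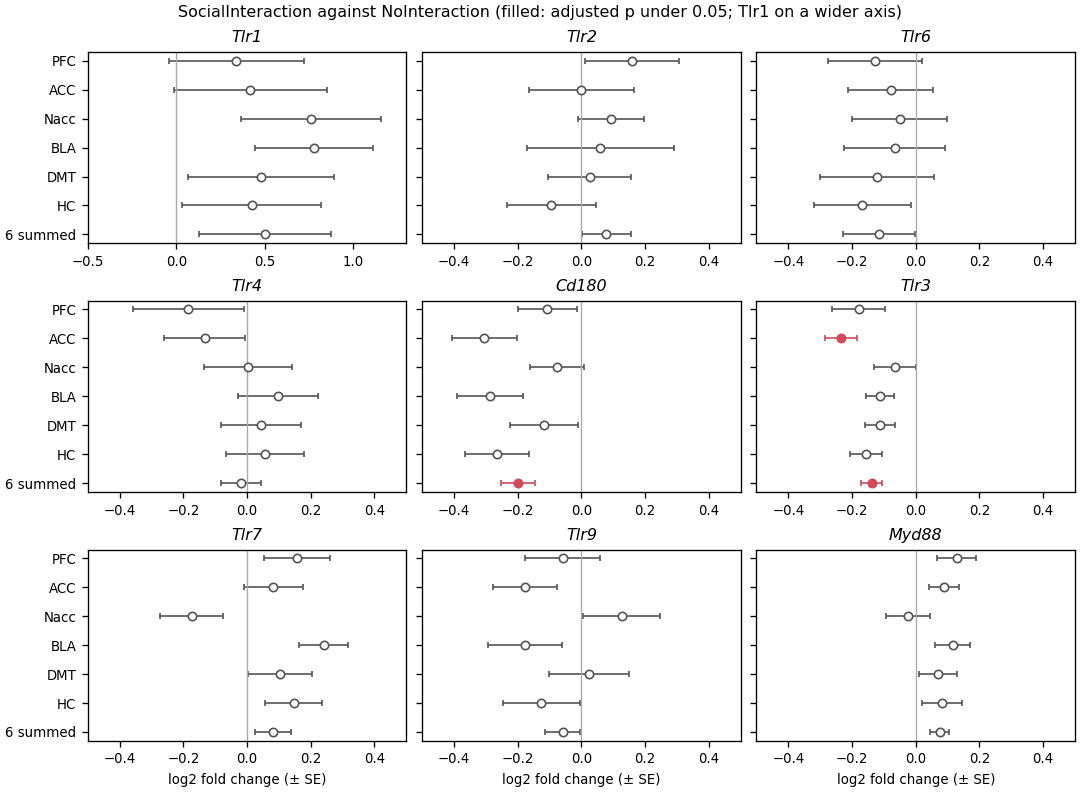
Log2 fold change of SocialInteraction against NoInteraction with its SE for each member, in each of 6 regions and with the 6 regions summed; filled red points have an adjusted p under 0.05. Tlr3 and Cd180 lie below 0 in all rows, with filled points for both when summed and for Tlr3 in the ACC, and no other member has a filled point.

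The other members did not pass this test. Myd88 had a log2 difference of 0.08 summed (SE 0.0298, unadjusted p = 0.0156 in the edgeR fit, adjusted 0.110) and was above 0 in 5 of 6 regions, with 4 of 20 SocialInteraction mice below the NoInteraction median. Tlr7 was above 0 in 5 of 6 regions, reaching 0.24 in the BLA (SE 0.0767, adjusted p = 0.0973), and stood at -0.17 in the Nacc. Tlr1 was above 0 in 6 of 6 regions (0.34 to 0.78, summed 0.50, SE 0.374, adjusted p = 0.469), with 11 of 20 SocialInteraction and 8 of 21 NoInteraction mice above its gap. Tlr6 was below 0 in 6 of 6 regions (-0.17 to -0.05, summed adjusted p = 0.614). Tlr2, Tlr4 and Tlr9 had both signs among the regions.

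Of 58 further genes of the pathway, compared between the sets (other Tlr genes, co-receptors and trafficking factors, adaptors and kinases, inhibitors, transcription factors and inducible targets), 55 could be tested with the regions summed, and 2 were called higher and 1 lower, against 8.56% of all genes. The higher genes were Hsp90b1, a chaperone that Toll-like receptors need to fold (log2 difference 0.19, SE 0.0374, adjusted p = 0.00139), and Tollip, an inhibitor of receptor signaling (0.04, SE 0.0114, adjusted p = 0.0147). The lower gene was Ikbkg, the regulatory subunit of the IKK complex (-0.04, SE 0.0106, adjusted p = 0.0142). Hsp90b1 was also called higher in the PFC, ACC, BLA, DMT and HC (0.17 to 0.25) and not in the Nacc (0.11, adjusted p = 0.9999, and 0.21, adjusted p = 0.353, without the mismatched libraries). Within regions Tollip was called higher in the ACC, Irak2, a kinase downstream of MYD88, lower in the PFC (-0.13, adjusted p = 0.0163) and ACC (-0.11, adjusted p = 0.0275), and Rela, an NF-kB subunit, lower in the DMT (-0.09, adjusted p = 0.0213). The median difference over all genes was -0.0009. By condition, 0 of 53 of these genes were called in any comparison with the regions summed, as were 0% of all genes. Between regions 49 of 55 of them were called, against 97% of all genes. Of the 5 other Tlr genes (Tlr5, Tlr8, Tlr11, Tlr12 and Tlr13), 4 passed the filter on low counts. The summed level of these 4 was 2.43 CPM in the DMT, its lowest, and 3.42 in the Nacc, its highest.

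Cell type markers moved with the encounter to a small degree. Of 12 microglia markers, Itgam (-0.11, adjusted p = 0.00590) and P2ry12 (-0.11, adjusted p = 0.0174) were called lower with the regions summed, and the median of the list was -0.03. In the ACC, where Tlr3 was called, the edgeR fit also called Itgam (-0.14, adjusted p = 0.0297) and P2ry12 (-0.17, adjusted p = 0.00349) lower. The summed level of the 12 markers was 315 to 362 CPM in the NoInteraction and 303 to 359 in the SocialInteraction mice. Of 4 endothelial markers Ly6c1 (0.28, adjusted p = 0.000184) was called higher, and of 4 astrocyte markers Aldh1l1 (0.08, adjusted p = 0.0430). The summed level of the endothelial list was 124 to 143 CPM (mean 132) in the NoInteraction and 124 to 144 (mean 135) in the SocialInteraction mice. That of the astrocyte list was 676 to 812 (mean 732) and 658 to 782 (mean 730). The part of these shifts in the lower Tlr3 and Cd180 was not tested.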

How the data were processed

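RNA was measured in punches of 6 regions from 41 mice, 1 library each, of which 12 Nacc libraries do not match the mouse on their label. The authors deposited a table of estimated counts per gene, 12.124% of which were not whole numbers. The submitters' processing notes name STAR, DESeq2 and GRCm39, and versions were not given in the sources used here. Gene IDs were matched to GENCODE M21 (52073 of 56691) or to RefSeq symbols (978), the remaining 3640 being left out, and coordinates, lengths and sequences are those of M21 on GRCm38.

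Counts were rounded. The filter of the study was kept, 100 counts over the libraries of a fit and 6 libraries above 0, for protein-coding genes. They were tested with the quasi-likelihood test of edgeR 4.0.16 (R 4.3.3, TMM scaling) and Benjamini-Hochberg adjustment over all genes, with a threshold of 0.05. The fit between regions had the group as covariate. Conditions and sets were compared within regions and on counts summed over the 6 regions of a mouse. Levels are TMM-scaled CPM, and CPM per kb uses the union of exons. Values per mouse are means of log2(CPM + 0.1). Single values were compared with exact permutation tests and correlations with 100000 resamples (SciPy 1.17.1). The test scripts were tested on simulated data. DESeq2 1.42.0, its size factors, no filter, another pseudocount, other subsets of libraries and leaving out each mouse were alternatives. Total counts per library were 20804247 to 43351424, and the members' low counts limit precision.

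Mice are the replicates, and their numbers pair the 6 libraries of a mouse. Over genes, the deviations of libraries of the same mouse correlated at a median r of 0.1002 to 0.327 between regions, against -0.0105 to -0.0017 for different mice. These hold the Nacc libraries as labelled, and the lowest value for the same mouse was that of Nacc and BLA. The members and gene lists were chosen with earlier results of these data known. The 9 members are named in every comparison, as are genes of the pathway lists that passed in a summed fit or between the sets, the 5 genes most like Tlr1, of which 1 is not reported here, and the 2 most like each other member. The choroid plexus and meninges lists, the comparison of mice on either side of the Tlr1 gap and some alternatives (without the BLA, without mouse 57, Tlr1 and Tlr6 summed) were chosen after seeing the data. A permutation test of likeness to Tlr1 over all 41 mice had been planned and is not given, because the mice fall into separate sets by Tlr1.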

Additional observations from a re-analysis of the deposited data

Results flagged for a closer look

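Of 54 groups of 6 or 7 mice (9 members in 6 groups), 4 held a mouse whose mean over the 6 regions stood apart from the rest of its group by Dixon's criterion, and chance gives about 1 in 20. In the NoInteraction ELA_SAFit2 group, mouse 39 had 1.49 CPM of Tlr1 and the other mice 0.256 to 0.391. Its Nacc library, which matched another mouse, had 0.436 CPM and its other regions 1.03 to 2.08. In the SocialInteraction Ctrl_Vehicle group, mouse 57 had 7.14 CPM of Tlr3, below the other mice at 8.48 to 8.81, and was the lowest of its group in 5 of 6 regions. The same mouse had 3.10 CPM of Tlr7, above the other mice at 1.73 to 2.13, and was the highest of its group in 6 of 6 regions. In the NoInteraction ELA_Vehicle group, mouse 43 had 4.24 CPM of Myd88 and the other mice 3.60 to 3.85. Why these mice stood apart was not tested.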

How the results depend on the processing

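The Tlr1 differences by condition and the lower Tlr3 and Cd180 after the encounter kept their direction under every alternative run for them. Likeness values near 0 turned: Myd88 to Tlr1 from -0.0835 to 0.0059 in the SocialInteraction mice alone and, without the BLA, Tlr2 above the gap (0.0220 to -0.0996) and Tlr7 (0.0684 to -0.0872) and Myd88 (0.0887 to -0.0772) below it. The count of members called between regions was 8, and 9 with the mouse number as a replicate block, where Tlr1 was the member gained. Between neighbouring regions the block brought 3 further steps past the threshold (Tlr1 from Nacc to BLA, Tlr6 from ACC to HC and from Nacc to DMT). The comparisons of conditions and sets have 1 value per mouse and take no block. The counts of members called by condition (0 in each set, within regions and summed) and for the encounter, and the count of condition effects that differed between the sets, were the same in every alternative run. The median agreement of Tlr1 between regions moved from 0.902 to 0.852 with Tlr1 and Tlr6 summed. The likeness of Tlr2 to Tlr1 moved from 0.356 to 0.577 over the 4 regions without the Nacc and BLA. The agreement of Cd180 was 0.0135 in the NoInteraction mice alone, and in the SocialInteraction mice alone the likeness to Tlr1 was 0.507 for Cd180, -0.540 for Tlr7 and -0.420 for Tlr9. The cause of these moves was not tested. A pseudocount of 1 in place of 0.1 gave Tlr1 differences of 0.306 and -0.632 in the NoInteraction set and 0.389 and -0.265 in the SocialInteraction set. Tlr1 and Tlr6 summed gave 0.516, -0.837, 0.356 and -0.382 in that order. For Tlr1 alone, leaving out each mouse in turn, the differences ran from 0.262 to 0.807, -1.43 to -0.884, 0.473 to 1.04 and -0.825 to -0.324. In the SocialInteraction set the ends were reached without mouse 57 and mouse 91 for the first difference and without mouse 23 and mouse 63 for the second. The median counts of Tlr1, Tlr2, Tlr4, Tlr6, Tlr9 and Cd180 were 16.5 to 37 per library, which limits their precision.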

Other observations

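Of the 4 genes nearest to Cd180 and Tlr7 over mice, 3 had an agreement between regions over 0.5, where 5.68% of all genes did. These 2 members were picked after seeing the values, and the nearest genes by means over the same regions. The share of all genes is therefore no baseline for them. Among the genes nearest to the other members the highest agreement was 0.388, for Tsga10. Gbp4, an interferon-inducible GTPase, and Stag3, a cohesin subunit of meiosis, had agreements between regions of 0.730 and 0.673, and Mertk, a receptor for dying cells on microglia and astrocytes, had 0.752, whereas Dio2, which activates thyroid hormone and was the nearest to Tlr7, had 0.368. Cd180 and Tlr7 had 0.264 and 0.266. In the Nacc, Tlr3 correlated with the meninges marker sum (r = 0.653, rho = 0.579, permutation test over 41 libraries, adjusted p = 0.000221 and 0.00158), and Tlr4 did so as well (r = 0.582, rho = 0.615). In the DMT, Tlr7 correlated with the microglia marker sum (r = 0.438, rho = 0.470, permutation test over 41 libraries, adjusted p = 0.0256 and 0.0147). Without the 2 farthest libraries r was 0.542 for Tlr3, 0.477 for Tlr4 and 0.422 for Tlr7.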
